A study of Mus musculus with 12 samples.

Results

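The genes described are 9 myeloid surface receptors of the mouse: Lilrb4a, Lilr4b, Pirb, Cd33, Cd72, Sirpa, Cd300a, Cd300lf and Cd300e. They were chosen by name, 9 of the 54232 genes counted, after their levels and their responses to a Syk inhibitor in these same libraries were known, so the values that made them candidates are given here as a description. All 9 passed the filter on low counts, as did 16281 genes in all.

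Most of these receptors carry in their cytoplasmic tail an immunoreceptor tyrosine-based inhibitory motif (ITIM), a short stretch around a tyrosine. When Src family kinases such as Lyn phosphorylate that tyrosine, the motif recruits the phosphatases Ptpn6, Ptpn11 and Inpp5d, which dampen signaling. The opposite motif, the ITAM, sits in adaptors such as Fcer1g and Tyrobp, pairs with short-tailed activating receptors and recruits the kinase Syk. Macrophages carry both kinds, often encoded by neighboring genes of the same family. Sirpa binds Cd47 on other cells and restrains their engulfment, Pirb binds MHC class I, Cd33 is a sialic acid binding lectin, and Cd72 binds Sema4d. Cd300a and Cd300lf recognize lipids on dying cells. Cd300e and Lilr4b (gp49A) are family members without an inhibitory tail.

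Bone marrow derived macrophages (BMDMs) of C57BL/6 mice were kept in culture for 5 days and then treated for 24 h, and poly(A) RNA was sequenced in 12 libraries. The 6 groups had 2 libraries each: untreated cells (NS), cells in tumor-conditioned medium (TCM) of NB9464, a MYCN-amplified neuroblastoma line of the mouse, cells in TCM of NBT3L, a line without that amplification, and the same 3 conditions with 500 nM R788 (fostamatinib), an inhibitor of Syk. NB9464 cells conditioned serum-free DMEM over 48 h. By the methods, the macrophages were grown before use in RPMI with serum and the growth factor M-CSF. The preparation of NBT3L TCM, the base medium of NS and the vehicle of R788 were not given in the sources used here. Nor was it given whether M-CSF was present during treatment. An effect of TCM thus cannot be told apart from a difference in base medium, serum or M-CSF. The labels do not say whether libraries of a group came from separate cultures or animals, and adjusted p values then measure only the spread between these libraries. In such bulk samples, fewer cells carrying a transcript and less transcript per cell cannot be told apart.

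Totals ranged from 44977847 to 56449685 counts per library. The 2 R788 libraries differed most from each other, with an SD of the log2 difference of 0.469 over 11523 genes against 0.298 to 0.335 in the other groups, and R788 replicate 8 had counts for 16149 genes against 17275 to 18343 in the others. Values without either R788 library are given where they matter. Syk itself rose with both media, from 14990 normalized counts (counts divided by the size factor of the library) in NS to 33930 with NB9464 TCM and 37340 with NBT3L TCM. With R788 it was higher in each condition, at 17970 without TCM, 42440 with NB9464 TCM and 44020 with NBT3L TCM. The 8 macrophage markers were all detected, with group means from 1580 (Mertk in NBT3L TCM) to 2049000 normalized counts (Lyz2 in NBT3L TCM + R788). Their sum lay between 1611000 and 2691000 in every library. Most of that sum was Lyz2, with a mean of 1346000 in NS. The 8 markers did not move as 1 block. Each TCM raised 5 of them and lowered 2 against NS, among them Adgre1 (F4/80), from 73740 to 221600 and 290500, and Cd68, from 58990 to 37660 and 45380. R788 alone raised 3 and lowered 3, with Fcgr1 from 13880 to 2959 and Cd14 from 26070 to 12490. Of all genes tested, 34.1% differed from NS with NB9464 TCM, 35.3% with NBT3L TCM and 26.6% with R788 alone (DESeq2 adjusted p under 0.05). The part of these markers in the responses of the receptors was not tested. Lists of T cell, mast cell, dendritic cell and neuroblastoma markers summed to at most 167.7 normalized counts in any library, and the neuroblastoma list to 0.0 in every library without TCM and to 6.70 to 54.1 with it.

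The inhibitory motif divides the 9 genes, and its coding sequence is shown here for that reason. The pattern searched was a serine, isoleucine, valine or leucine, any residue, a tyrosine, any pair of residues, and an isoleucine, valine or leucine, on the cytoplasmic side of the most hydrophobic stretch of the longest GENCODE M21 protein. It was found 3 times in Pirb and Sirpa, 2 times in each of Lilrb4a, Cd72, Cd300a and Cd300lf, and 0 times in Lilr4b, Cd33 and Cd300e. Cd300e had 4 residues on that side, Lilr4b 43 and Cd33 135. For the 6 genes with a match, a motif encoded within a single exon is printed from the mm10 genome, 5′ to 3′ on the coding strand, with the tyrosine codon in capitals.
Lilrb4a: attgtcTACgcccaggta
Pirb: gtgaccTATgcccagctg
Cd72: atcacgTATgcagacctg
Sirpa: atcacaTACgcagacctg
Cd300a: gtggaaTATagcacattg
Cd300lf: ctctgtTATgcagacctg
These lie at chr10:51496021-51496038 in exon 8 of 9 of Lilrb4a, chr7:3712786-3712803 in exon 15 of 15 of Pirb, chr4:43454498-43454515 in exon 1 of 9 of Cd72, chr2:129629954-129629971 in exon 9 of 9 of Sirpa, chr11:114899846-114899863 in exon 6 of 7 of Cd300a and chr11:115117648-115117665 in exon 6 of 7 of Cd300lf. Pirb, Cd72 and Cd300lf are on the minus strand.

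Some of these counts cannot be assigned to 1 gene with certainty. Lilrb4a (ENSMUSG00000112148, chromosome 10, 51490956 to 51496611) and Lilr4b (ENSMUSG00000112023, chromosome 10, 51480632 to 51486703) are neighbors whose coding sequences were identical at 871 of 907 aligned bases (96.0%). Of the 150-base words in the Lilr4b transcript, 92 of 1687 (5.5%) also occurred in Lilrb4a. Every one of the 1232 words of Lilrb4a occurred in the read-through gene Gm49339, which was listed with means of at most 2.73 normalized counts. The 2 genes overlap over 1846 of the 5227 exon bases of Lilrb4a. For Pirb (ENSMUSG00000058818, chromosome 7, 3711409 to 3720391), 622 of 3675 words (16.9%) were shared with Pira2 and other members of its cluster. The other 6 genes shared none. Only the transcript with the longest coding sequence of each gene was searched, which leaves other exons unchecked. For Cd33, 1962 bases were searched against a gene length of 7771. Exons of Cd72 overlap those of Tesk1 on the opposite strand over 1423 of 3422 bases, and Tesk1 lay between 2245 and 2723 normalized counts in all groups. How multi-mapping reads and strand were treated in counting is not given in the sources used here. At least the 3 genes of shared sequence and Cd72 thus carry that uncertainty.

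Per unit of length, Sirpa was the most abundant of the receptors in every group. On the TPM scale, in which counts are divided by the gene length of the table and scaled to the same sum in every library, NS had 1280 ± 32 of Sirpa, 541 ± 13 of Lilr4b, 265 ± 2.5 of Pirb, 243 ± 6.2 of Cd72 and 237 ± 11 of Lilrb4a (SD, n = 2). Cd300a followed at 90.5 ± 0.31, Cd300lf at 50.2 ± 2.6, Cd300e at 39.7 ± 1.6 and Cd33 at 33.7 ± 1.5 TPM. Cd72 and Lilrb4a, neighbors in this order, were closer than their spread. The order was different in NBT3L TCM with R788, where Cd300e stood at 335 ± 1.6 TPM, behind only Sirpa at 1100 ± 31 and Pirb at 364 ± 3.9. These orders between genes depend on the length used, and no other length was tried. The gene lengths of Lilrb4a, Lilr4b and Cd33 were 5227, 5439 and 7771 bases. Their transcripts with the longest coding sequence had 1381, 1836 and 1962 bases. For Cd300e both lengths were 2088. From the lowest to the highest library, Cd300e spanned 39.89-fold in normalized counts, Cd300a 4.30-fold and Cd72 3.42-fold, whereas Sirpa spanned 1.28-fold.

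**Figure D1:**
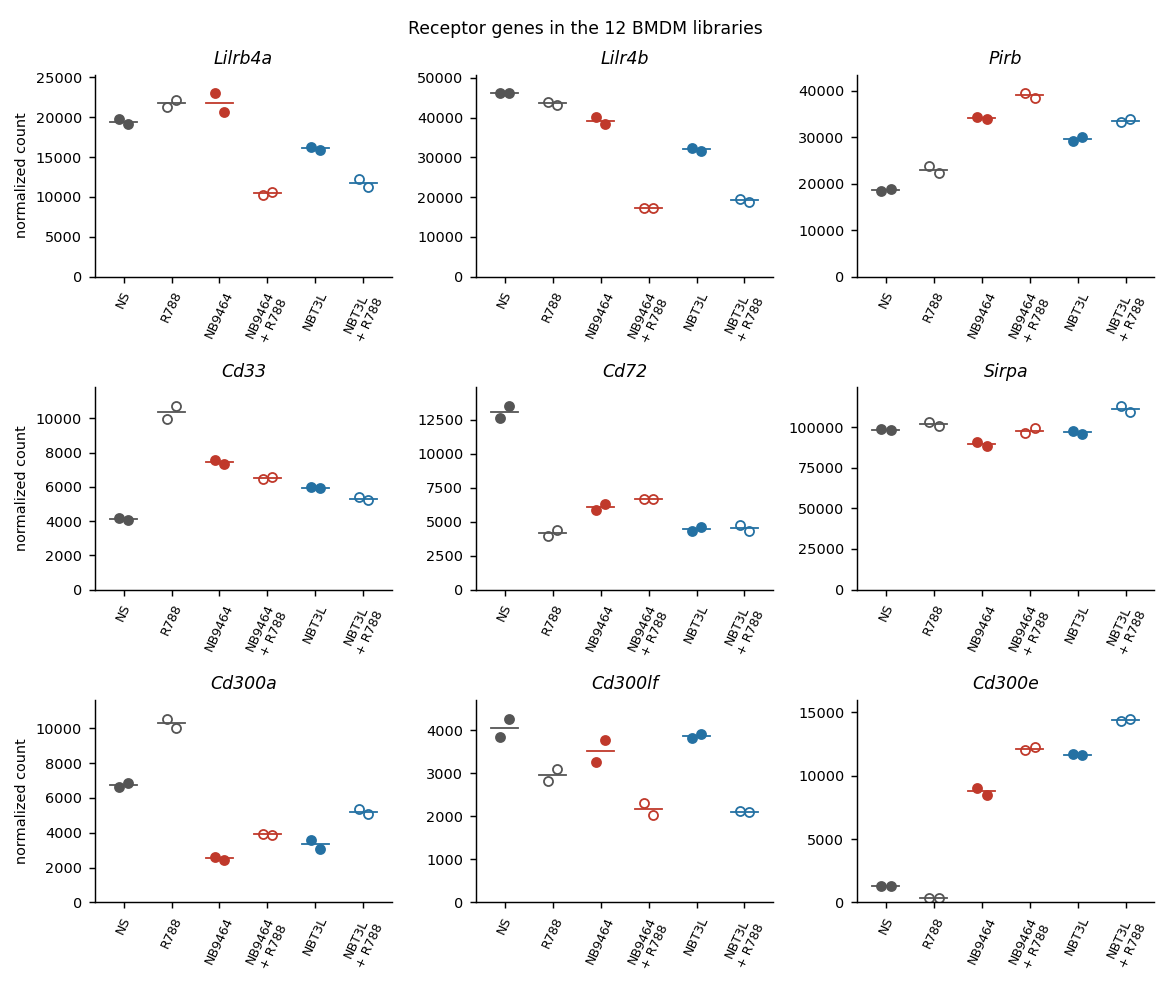
Normalized counts (vertical axis, linear from 0) of the 9 receptor genes in the 6 groups (horizontal axis). Each circle is a library, open with R788 and filled without, gray without TCM, red with NB9464 TCM and blue with NBT3L TCM, and the bar is the mean of 2 libraries. Cd300e is lowest in R788 and highest in NBT3L TCM with R788, while Cd72 is high in NS alone.

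How many of the receptors changed was read against all genes tested. Called means an adjusted p under 0.05 in the Wald test of DESeq2, adjusted in each comparison over the tested genes that its filter on low means kept. Between 316 and 4419 of the 16281 genes, by comparison, had no adjusted p and are counted as not called. NB9464 TCM against NS gave 4 of the 9 called higher and 4 lower, beside 34.1% of all genes called, 17.2% higher and 16.9% lower. In NBT3L TCM against NS, 3 were higher and 4 lower, beside 35.3% of all genes called, 18.0% higher and 17.3% lower. Between NB9464 TCM and NBT3L TCM, 5 were higher in the former and 3 lower, beside 9.40% of all genes called, 3.69% higher and 5.72% lower. R788 without TCM raised 4 and lowered 3, beside 26.6% of all genes called, 11.6% higher and 15.0% lower. In NB9464 TCM it raised 4 and lowered 4, against 14.5% of all genes called, 5.79% higher and 8.70% lower. Without NB9464 TCM + R788 replicate 9 that count fell from 8 to 5, since Pirb, Cd33 and Sirpa were no longer called. In NBT3L TCM it raised 4 and lowered 3, against 12.6% of all genes called, 5.33% higher and 7.24% lower. Both TCM comparisons and the R788 comparison without TCM share the NS libraries. In these comparisons the libraries of the 2 groups did not overlap for 49.3% to 66.8% of all genes tested. That held for 8 or 9 of the 9 receptors. The receptors were chosen with these responses known, and nothing is read from the counts beyond the description.

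Cd300e (ENSMUSG00000048498, chromosome 11, 115051917 to 115062177), an activating-type member of the Cd300 family that signals through adaptors, changed most. Its normalized counts were 1318 and 1284 in NS, 9050 and 8465 with NB9464 TCM and 11690 and 11610 with NBT3L TCM. With R788 they were 363.5 and 368.9 without TCM, 12050 and 12230 with NB9464 TCM and 14320 and 14500 with NBT3L TCM. All 8 libraries with TCM thus lay above all 4 without, and R788 moved it down without TCM and up within either medium, with no overlap between groups. The log2 fold change was 2.75 ± 0.065 (SE), or 6.73-fold, with NB9464 TCM and 3.16 ± 0.064, or 8.96-fold, with NBT3L TCM against NS. R788 changed it by -1.83 ± 0.08 on the log2 scale without TCM, by 0.47 ± 0.059 with NB9464 TCM and by 0.31 ± 0.059 with NBT3L TCM, all called. The ratio of the mean with TCM and R788 to the mean with R788 alone was 33.2 for NB9464 TCM and 39.4 for NBT3L TCM. Without R788 replicate 7 or 8 the change with R788 alone was -1.82 or -1.84. Over the same comparison, the summed level of 6 neutrophil markers was 3700 to 4173 in NS. It was 8025 to 8174 with NB9464 TCM and 9844 to 9979 with NBT3L TCM. Nearly all of it was S100a8 and S100a9, which macrophages also express. S100a8 rose from a mean of 1265 in NS to 6043 and 7978 with NB9464 and NBT3L TCM. S100a9 went the other way, from 2482 to 2052 (not called) and 1930 (called lower). Ly6g had means of at most 1.9, and Mpo and Elane went from means of 70.4 and 57.0 in NS to at most 7.31 in any TCM group. Their part in the level of Cd300e was not tested.

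Cd300a (ENSMUSG00000034652, chromosome 11, 114890041 to 114904654), an inhibitory member of the same family, moved the other way with TCM. It had 6608 and 6851 normalized counts in NS, 2634 and 2454 with NB9464 TCM and 3612 and 3086 with NBT3L TCM. With R788 the counts were 10560 and 10030 without TCM, 3951 and 3877 with NB9464 TCM and 5372 and 5063 with NBT3L TCM. Every R788 library exceeded both libraries of the same medium without it. The fall against NS was -1.40 ± 0.083 on the log2 scale (SE), to 37.8% of NS, with NB9464 TCM and -1.01 ± 0.083, to 49.7%, with NBT3L TCM. The rise with R788 was 0.61 ± 0.081 without TCM, 0.62 ± 0.084 with NB9464 TCM and 0.64 ± 0.083 with NBT3L TCM, and no difference between these rises was called. With a library left out, the differences between them ranged from -0.135 to 0.146. The TCM + R788 groups still lay below NS, with ratios of means of 0.582 and 0.775.

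Cd300lf (ENSMUSG00000047798, chromosome 11, 115116214 to 115133992), also inhibitory, was lowered by R788 in every medium. The counts were 3849 and 4275 in NS, 3276 and 3767 with NB9464 TCM and 3836 and 3907 with NBT3L TCM, and the libraries of NBT3L TCM overlapped those of NS. With R788 they were 2833 and 3113 without TCM, 2319 and 2039 with NB9464 TCM and 2125 and 2103 with NBT3L TCM, below every library of the same medium without R788. Neither TCM changed it by a called amount, with log2 fold changes of -0.21 ± 0.10 (adjusted p = 0.101) and -0.07 ± 0.10 (adjusted p = 0.67, DESeq2). Without NB9464 TCM replicate 4 the former was -0.31 and called (adjusted p = 0.0353), and without NS replicate 2 the latter was 0.00602. The fall with R788 was -0.45 ± 0.10 without TCM, -0.69 ± 0.10 with NB9464 TCM and -0.87 ± 0.10 with NBT3L TCM. Thus 3 neighbors of 1 cluster on chromosome 11 had 3 different patterns.

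Lilrb4a, an inhibitory receptor with Ig domains, was close to its NS level with R788 or NB9464 TCM alone and lower with both. It had 19780 and 19080 normalized counts in NS, 23040 and 20600 with NB9464 TCM and 16310 and 15840 with NBT3L TCM. With R788 these were 21310 and 22140 without TCM, 10270 and 10600 with NB9464 TCM and 12290 and 11240 with NBT3L TCM. The 4 libraries with TCM and R788 were the lowest of all 12. R788 changed it by -1.06 ± 0.065 (log2, SE), to 47.8% of its level, with NB9464 TCM and by -0.45 ± 0.065, to 73.2%, with NBT3L TCM. Its smaller differences, 0.17 ± 0.065 for NB9464 TCM against NS and 0.16 ± 0.065 for R788 against NS, were called by DESeq2 (adjusted p = 0.0305 and 0.0445) but not by edgeR (adjusted p = 0.0646 and 0.0805). Each also lost its call in 3 of 4 fits with a library left out, namely NS replicate 1, NS replicate 2 and either NB9464 TCM replicate 3 or R788 replicate 8.

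Lilr4b, its neighbor without an ITIM, had a similar pattern at a higher level. Its counts were 46210 and 46090 in NS, 40100 and 38310 with NB9464 TCM and 32350 and 31710 with NBT3L TCM. With R788 they were 43960 and 43260 without TCM, 17280 and 17220 with NB9464 TCM and 19640 and 18740 with NBT3L TCM. Here too the 4 libraries with TCM and R788 lay below the other 8. The changes with R788 were -0.08 ± 0.046 without TCM (adjusted p = 0.181), -1.18 ± 0.046 with NB9464 TCM, to 44.0% of its level, and -0.74 ± 0.046 with NBT3L TCM, to 59.9% (log2, SE, DESeq2). Among the 36 pairs of the 9 receptors, Lilrb4a and Lilr4b had the most similar group means, with a root-mean-square difference of 0.187 on the centered log2 scale. Their ratio was not constant, however. The count of Lilr4b over that of Lilrb4a was 2.376 ± 0.056 in NS, 2.008 ± 0.077 in R788, 1.800 ± 0.084 in NB9464 TCM, 1.993 ± 0.013 in NBT3L TCM, 1.654 ± 0.041 in NB9464 TCM + R788 and 1.633 ± 0.049 in NBT3L TCM + R788 (SD, n = 2). The lowest ratio in NS, 2.336, lay above the highest in any other group, 2.063.

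Pirb, the paired inhibitory receptor for MHC class I, rose with each treatment. The counts were 18440 and 18770 in NS, 34300 and 33800 with NB9464 TCM and 29180 and 29940 with NBT3L TCM. R788 brought them to 23720 and 22290 without TCM, 39510 and 38480 with NB9464 TCM and 33190 and 33870 with NBT3L TCM. No 2 groups compared here overlapped, which held for 49.3% to 66.8% of all genes tested, by comparison. The rise against NS was 0.87 ± 0.048 (log2, SE), or 1.83-fold, with NB9464 TCM and 0.67 ± 0.048, or 1.59-fold, with NBT3L TCM. R788 added 0.31 ± 0.048 to the level without TCM, 0.20 ± 0.048 with NB9464 TCM and 0.18 ± 0.048 with NBT3L TCM. The rises within the media lost their call without NB9464 TCM + R788 replicate 9, and without NBT3L TCM replicate 5 or NBT3L TCM + R788 replicate 12. The related activating gene Pira2, with which it shares sequence, fell from 2775 ± 68.7 in NS to 1288 ± 86.0 and 1716 ± 69.1 normalized counts in NB9464 and NBT3L TCM (SD, n = 2).

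Cd33 (ENSMUSG00000004609, chromosome 7, 43524216 to 43544428), a siglec, was highest with R788 alone. It had 4177 and 4052 normalized counts in NS and 9984 and 10740 with R788, against 7546 and 7349 with NB9464 TCM and 5984 and 5931 with NBT3L TCM. In the media with R788 it had 6448 and 6552 (NB9464) and 5394 and 5227 (NBT3L). R788 alone thus gave the highest libraries of all 12, while in both media the R788 libraries lay below those without it. The log2 fold change with R788 was 1.33 ± 0.063 (SE), or 2.52-fold, without TCM, and 1.28 or 1.39 when R788 replicate 8 or 7 was left out. In NB9464 TCM it was -0.20 ± 0.063 (adjusted p = 0.0136) and in NBT3L TCM -0.17 ± 0.064 (adjusted p = 0.0577, DESeq2), the latter called when only the libraries compared were fitted. The fall in NB9464 TCM lost its call whichever of the 4 libraries was left out. TCM alone raised Cd33 by 0.86 ± 0.064 (NB9464) and 0.53 ± 0.064 (NBT3L) on the log2 scale.

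Cd72 (ENSMUSG00000028459, chromosome 4, 43446462 to 43454628), a C-type lectin-like receptor of B cells and myeloid cells, was high in NS and low in every treated group. Its counts were 12640 and 13510 in NS, 5818 and 6313 with NB9464 TCM and 4316 and 4575 with NBT3L TCM. With R788 they were 3950 and 4363 without TCM, 6639 and 6643 with NB9464 TCM and 4768 and 4296 with NBT3L TCM. All 10 treated libraries lay below both of NS, and R788 libraries in NBT3L TCM overlapped those without it. The log2 fold change against NS was -1.11 ± 0.079 in NB9464 TCM, -1.56 ± 0.079 in NBT3L TCM and -1.65 ± 0.079 with R788 (SE), or 46.4%, 34.0% and 31.8% of NS. Within the media R788 changed it by 0.13 ± 0.079 (adjusted p = 0.281) and 0.03 ± 0.08 (adjusted p = 0.896, DESeq2). Of 4 B cell markers, Pax5 had 0 counts in every library, and the 4 together summed to 129.0 to 201.9 normalized counts in NS, 94.5 to 138.9 in R788, 222.9 to 247.8 in NB9464 TCM, 160.2 to 173.2 in NBT3L TCM, 454.3 to 524.2 in NB9464 TCM + R788 and 409.3 to 418.0 in NBT3L TCM + R788. Nearly all of it was Cd79b. R788 raised Cd79b within NB9464 TCM (2.16-fold, DESeq2 adjusted p = 0.0045) and within NBT3L TCM (2.53-fold, adjusted p = 0.000519). Without TCM, R788 brought Cd79b to 0.71-fold of NS, which was not called (DESeq2 adjusted p = 0.287). The part of B cells in the level of Cd72 was not tested.

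The bases before the start of Cd72 are shown because it lay below NS in every treated group. RefSeq promoters (GRCm38.p6) were at hand for 7 of the 9 receptors. In the 250 bases upstream of their starts, the ETS core GGAAGT, on either strand, occurred in Pirb, Cd33, Cd72, Cd300lf and Cd300e, and in 19.7% of 32851 promoters of all genes. The longer PU.1 motif GAGGAAGT, which contains that core, occurred in Pirb and Cd72 and in 2.4% of all promoters. PU.1 is a transcription factor of myeloid and B cells. The AP-1 motif TGANTCA occurred in none of the 7 and in 6.7% of all promoters. These are matches of letters, and binding was not measured. The sequence at chr4:43454627-43454876, minus strand, reads 5′ to 3′ toward the start with the reverse-strand PU.1 match in capitals, from base -49 to base -42.
Cd72: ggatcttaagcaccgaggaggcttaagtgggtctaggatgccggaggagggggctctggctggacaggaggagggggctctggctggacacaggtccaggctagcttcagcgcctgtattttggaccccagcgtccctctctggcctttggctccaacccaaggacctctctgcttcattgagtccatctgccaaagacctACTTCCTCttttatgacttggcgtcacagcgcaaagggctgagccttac

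Sirpa (ENSMUSG00000037902, chromosome 2, 129592835 to 129632228), the receptor for Cd47, was nearly level. Its counts were 98630 and 98170 in NS, 90650 and 88260 with NB9464 TCM and 97530 and 95950 with NBT3L TCM. With R788 they were 103000 and 100800 without TCM, 96290 and 99250 with NB9464 TCM and 113200 and 109400 with NBT3L TCM. The largest of its differences was the rise with R788 in NBT3L TCM, 0.20 ± 0.041 (log2, SE), or 1.15-fold. NB9464 TCM lowered it by -0.14 ± 0.041 against NS, and against NBT3L TCM the difference of -0.11 ± 0.041 was called (adjusted p = 0.0494, DESeq2) but not by edgeR (adjusted p = 0.123) or with any library left out. The fall against NS lost its call without NB9464 TCM replicate 4, and a rise of 0.13 ± 0.041 with R788 in NB9464 TCM lost it without NB9464 TCM replicate 4 or either NB9464 TCM + R788 library.

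**Figure D2:**
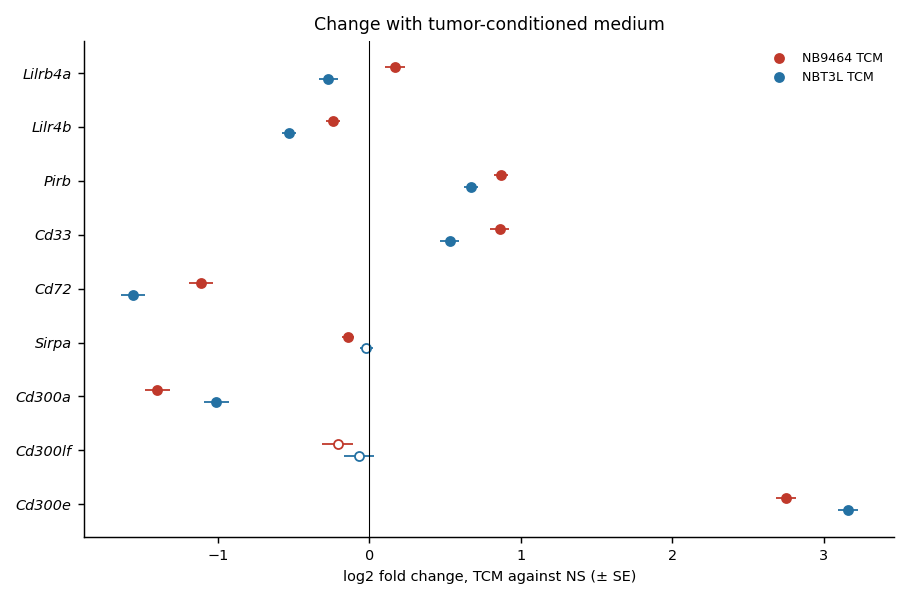
Log2 fold change against NS (horizontal axis, ± SE of the fit) of the 9 receptor genes (vertical axis) in NB9464 TCM (red) and NBT3L TCM (blue). Filled circles were called at an adjusted p under 0.05 and open ones were not, and Cd300e stands at 2.75 and 3.16 while Cd72 and Cd300a lie at -1.01 or lower in both media.

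The 2 conditioned media differed in degree for most of the receptors. NB9464 TCM had more than NBT3L TCM of Cd72 (0.45 ± 0.08, log2 ± SE), Lilrb4a (0.44 ± 0.065), Cd33 (0.32 ± 0.063), Lilr4b (0.29 ± 0.046) and Pirb (0.20 ± 0.048, not called without NBT3L TCM replicate 5). It had less of Cd300e (-0.41 ± 0.059), Cd300a (-0.40 ± 0.084) and Sirpa. Cd300lf differed by -0.14 ± 0.10 and was not called. Lilrb4a was the gene whose direction against NS was opposite in the 2 media, at 0.17 ± 0.065 and -0.27 ± 0.065, the former of which edgeR did not call.

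Whether the response to R788 itself depended on the medium was tested as an interaction, the difference between log2 fold changes with R788. Compared with no TCM, the response in NB9464 TCM differed for 5 of the 9 receptors, 2 more positive and 3 more negative, where 12.5% of all genes were called, 6.22% more positive and 6.26% more negative. The response in NBT3L TCM differed from that without TCM for 6, 2 more positive and 4 more negative, where 10.1% of all genes were called, 5.17% and 4.96%. Both interactions use the same R788 and NS libraries. Cd300e had the most positive interactions, 2.30 ± 0.10 with NB9464 TCM and 2.13 ± 0.10 with NBT3L TCM (SE), followed by Cd72 with 1.78 ± 0.11 and 1.68 ± 0.11. Cd33 had the most negative, -1.53 ± 0.089 and -1.50 ± 0.09. For Lilrb4a they were -1.23 ± 0.092 and -0.61 ± 0.092, and for Lilr4b -1.10 ± 0.065 and -0.66 ± 0.065. These 5 genes kept their calls under every alternative run and when either R788 library was left out. Cd300lf was called with NBT3L TCM alone, at -0.42 ± 0.14 (adjusted p = 0.0272, DESeq2), but not by edgeR (adjusted p = 0.0757) or without R788 replicate 8 (adjusted p = 0.109), and it lost its call in 6 of 8 fits with a library left out. For Cd300a, Pirb and Sirpa no interaction was called, and the estimates lay between -0.12 ± 0.068 and 0.15 ± 0.058. The highest of these, of Sirpa in NBT3L TCM, was called with TMM scaling in DESeq2 (adjusted p = 0.0472) and without R788 replicate 7, and the lowest, of Pirb in NBT3L TCM, without R788 replicate 8.

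**Figure D3:**
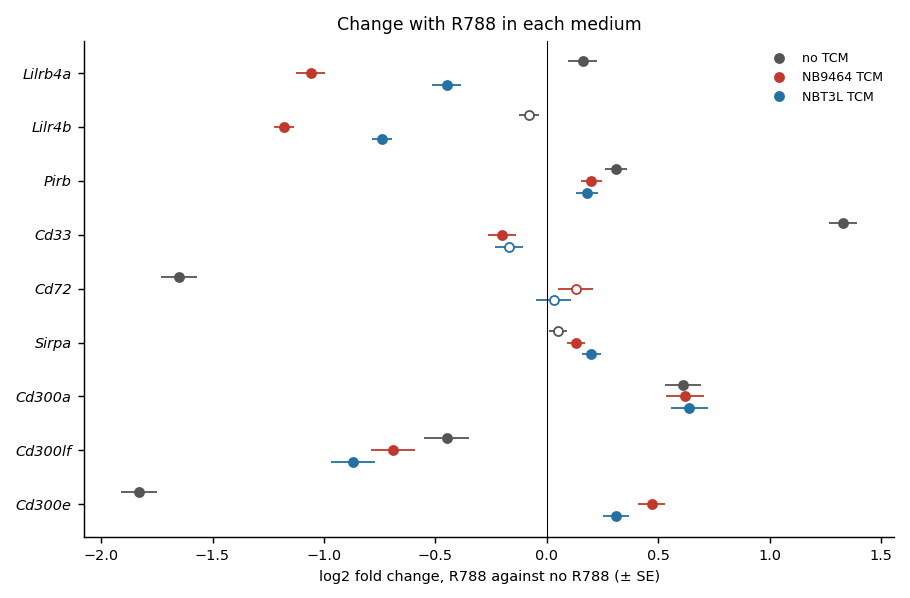
Log2 fold change with R788 (horizontal axis, ± SE of the fit) of the 9 receptor genes (vertical axis) without TCM (gray), in NB9464 TCM (red) and in NBT3L TCM (blue). Filled circles were called at an adjusted p under 0.05. Cd300e and Cd72 lie at -1.83 and -1.65 without TCM and at or above 0 in both media, Cd33 lies at 1.33 without TCM alone, and the 3 circles of Cd300a fall between 0.61 and 0.64.

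Between the 2 conditioned media, the response to R788 differed for 2 of the 9 receptors, both lower in NB9464 TCM, where 0.706% of all genes were called, 0.283% more positive and 0.424% more negative. These were the neighbors Lilrb4a, with an interaction of -0.61 ± 0.092 (SE, DESeq2 adjusted p = 4.84e-08), and Lilr4b, with -0.45 ± 0.065 (adjusted p = 1.54e-08). Since reads of this pair can be shared, they are not independent observations. With R788, the levels in NB9464 and NBT3L TCM were 10440 ± 233 and 11770 ± 747 normalized counts of Lilrb4a (SD, n = 2). Those of Lilr4b were 17250 ± 40.4 and 19190 ± 639. Both genes were thus lower in NB9464 TCM + R788, a difference that was not tested. Without R788 the order was the opposite and the groups were further apart. Lilrb4a then stood at 21820 ± 1720 and 16080 ± 331, and Lilr4b at 39200 ± 1260 and 32030 ± 450.

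Other receptors with inhibitory motifs gave a wider picture of the class. Of 14 listed, 13 were tested, and Pdcd1 had 0 counts throughout. NB9464 TCM raised 6 and lowered 3 of them, with a median log2 fold change of 0.52, and NBT3L TCM raised 7 and lowered 4, with a median of 1.02. Over all genes tested the medians were 0.02 and 0, and 34.1% and 35.3% were called, 17.2% and 18.0% higher and 16.9% and 17.3% lower. Siglece, a siglec of neutrophils and macrophages, rose from 886 ± 22 normalized counts in NS to 12650 ± 1050 and 12240 ± 18.8 in NB9464 and NBT3L TCM (SD, n = 2), log2 fold changes of 3.84 and 3.79. Pecam1, an adhesion molecule with ITIMs, rose from 39.6 to 562.4 and 435.9 normalized counts. Pilra rose by 2.02 and 2.27 on the log2 scale, the inhibitory Fc receptor Fcgr2b by 1.78 and 1.86, Clec4a2 by 1.33 and 1.16 and the allergin receptor gene Milr1 by 0.90 and 1.02. The falls were small in Clec12a (-0.14 and -0.16) and the collagen receptor Lair1 (-0.24 and -0.18), and larger in Treml1 (-1.22 and -1.64), which had means of at most 201.9 normalized counts. Cd22 rose by 1.02 and Siglecf fell by 2.15 on the log2 scale in NBT3L TCM, both at means of at most 248.3 normalized counts.

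Several of these also responded to R788 by medium. Without TCM, R788 raised 3 (Fcgr2b by 0.88, Siglece by 0.43 and Cd22 by 1.20) and lowered 3 (Lair1 by -0.92, Clec12a by -0.72 and Milr1 by -0.25) on the log2 scale, where 26.6% of all genes were called. Lair1 and Clec12a, like Cd72, had positive interactions in both media, 0.79 and 0.76 for Lair1 and 0.81 and 0.75 for Clec12a. Fcgr2b, like Cd33, had negative ones, -1.0 with NB9464 TCM and -1.45 with NBT3L TCM, and it was the single gene of this list whose response differed between the media (0.45 ± 0.093, SE). In NB9464 TCM 2 of the 13 rose with R788 and 1 fell, and in NBT3L TCM 2 rose and 2 fell, where 14.5% and 12.6% of all genes were called. Siglece and Clec4a2 rose in both, by 0.43 and 0.34 and by 0.41 and 0.23, and Pilra fell in both, by 0.15 and 0.28 on the log2 scale, while Fcgr2b fell by 0.57 in NBT3L TCM. NB9464 TCM had more Clec4a2 (0.16) and less Pilra (-0.26) than NBT3L TCM. Further called interactions were those of Pilra (-0.29 and -0.41), of Clec4a2 (0.29), Milr1 (0.39) and Ceacam1 (-0.50) in NB9464 TCM, and of Cd22 (-1.40) in NBT3L TCM. No call was made for Siglecg.

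The activating partners of these families did not follow 1 direction. Of 14 listed, 10 were in the table and tested. NB9464 TCM raised 3 and lowered 4, and NBT3L TCM raised 3 and lowered 5, with medians of -0.34 and -0.49 on the log2 scale, where 34.1% and 35.3% of all genes were called. Pilrb1 and Pilrb2, the activating counterparts of Pilra, rose by 2.45 and 2.18 on the log2 scale in NB9464 TCM and by 2.63 and 2.30 in NBT3L TCM. These 2 are near-identical paralogs, so that reads may be divided between them. In the Cd300 cluster, Cd300lb fell from 12680 ± 172 in NS to 6372 ± 186 and 6120 ± 72.6 normalized counts with TCM, while Cd300ld rose from 11710 ± 250 to 14310 ± 1010 and 20340 ± 101 (SD, n = 2). Cd300ld was lower in NB9464 than in NBT3L TCM (-0.51, log2), as was Pira2 (-0.41). Its changes with R788 were -0.48 without TCM, -0.47 with NB9464 TCM and -0.48 with NBT3L TCM (log2). Cd300lb fell with R788 in NB9464 TCM (-0.40) and NBT3L TCM (-0.19). Cd300c2 changed by -0.24 in NB9464 TCM, and Cd300c was called in NBT3L TCM at means of at most 21.8 normalized counts. The Sirpb1 genes, activating relatives of Sirpa, were lower with TCM where called, Sirpb1c by -0.64 and -0.88 and Sirpb1b by -0.45 in NBT3L TCM, and Sirpb1c rose by 0.40 with R788 alone. Pilrb1 and Cd300lb had interactions of -0.41 and -0.34 in NB9464 TCM, and Pilrb2 of -0.60 in NBT3L TCM, where it fell with R788 by 0.36 on the log2 scale.

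Among the 3 adaptors, Fcer1g rose from 39890 ± 1980 normalized counts in NS to 59060 ± 2910 with NB9464 TCM and 68860 ± 1070 with NBT3L TCM (SD, n = 2), and its response to R788 was 0.64 higher on the log2 scale in NB9464 TCM than without TCM. Tyrobp rose by 0.41 with R788 in NB9464 TCM. Hcst was not called in any comparison. The kinases and phosphatases that act on ITIMs were called in the main with TCM. Of 8 tested, NB9464 TCM raised 5 and lowered 2, as did NBT3L TCM, where 34.1% and 35.3% of all genes were called. The Src family genes Lyn (0.66 and 0.54), Fgr (0.69 and 0.71) and Src (0.68 and 1.29) rose on the log2 scale, as did the phosphatase genes Ptpn6 (0.52 and 0.40) and Ptpn11 (0.52 and 0.41). The inositol phosphatase genes Inpp5d (-0.26 and -0.14) and Inppl1 (-0.81 and -0.98) fell. With R788 alone, Fgr rose by 0.81 and Inpp5d by 0.16, while Inppl1 changed by -0.47 and Csk by -0.24. Within the media R788 raised Ptpn6 (0.29 and 0.28) and Fgr (0.33 and 0.50). Called interactions were positive for Ptpn6 (0.41 and 0.39), Inppl1 (0.31 and 0.49) and, with NBT3L TCM, Csk (0.31). They were negative for Fgr (-0.48 and -0.31) and, with NB9464 TCM, Inpp5d (-0.23). Between the media, NB9464 TCM had less Src (-0.62).

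**Figure D4:**
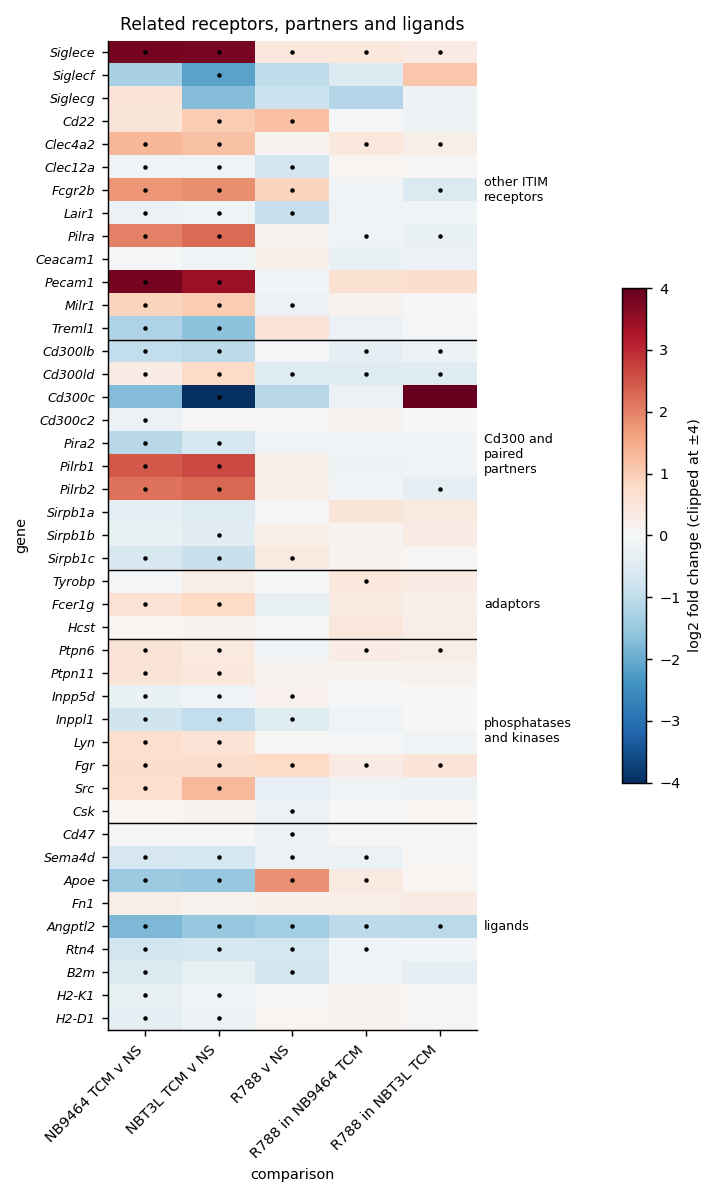
Log2 fold change (color, clipped at 4 in either direction) of the tested genes of 5 lists (vertical axis, separated by lines) in 5 comparisons (horizontal axis). Dots mark genes called at an adjusted p under 0.05. Siglece and Pecam1 are deep red in both TCM columns, and Pilra, Pilrb1, Pilrb2 and Fcgr2b are a paler red there. The strongest colors of Cd300c rest on means of at most 21.8 normalized counts.

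Genes of ligands of these receptors were called lower or not at all with TCM. Of 9 tested, NB9464 TCM lowered 7 and NBT3L TCM 6, with none higher, where 16.9% and 17.3% of all genes were called lower. The ligands of Pirb, H2-K1 (-0.30 and -0.17) and H2-D1 (-0.39 and -0.19), fell slightly on the log2 scale, as did B2m in NB9464 TCM (-0.58). Rtn4 (Nogo), another ligand of Pirb, changed by -0.76 and -0.71, and Angptl2, a ligand of Pirb and its relatives, by -1.81 and -1.51. Sema4d, the ligand of Cd72, changed by -0.68 and -0.71. Cd47, the ligand of Sirpa, was at 12360 ± 782 in NS and 12120 ± 798 and 12170 ± 597 normalized counts in the media (SD, n = 2), and neither difference was called. Apoe, a ligand of the human relative LILRB4, changed by -1.44 and -1.51 with TCM and rose by 1.84 with R788 alone, from 5751 ± 430 to 20590 ± 2370 normalized counts, with interactions of -1.49 and -1.76. R788 without TCM also changed Angptl2 (-1.39), B2m (-0.75), Rtn4 (-0.71), Cd47 (-0.25) and Sema4d (-0.25). Within NB9464 TCM it changed Angptl2 (-1.04), Sema4d (-0.23), Rtn4 (-0.16) and Apoe (0.35), and within NBT3L TCM Angptl2 alone (-1.07). Interactions were called for Rtn4 (0.55 and 0.59), for B2m (0.60) and Cd47 (0.30) with NB9464 TCM and for Sema4d (0.30) with NBT3L TCM. Sema4d also differed between the media in its response (-0.27), and H2-D1 was lower in NB9464 TCM than in NBT3L TCM (-0.20). Fn1 was not called.

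The genes most like each receptor over the 6 groups were picked by search, so each receptor has a nearest gene by construction. Likeness was measured as the root-mean-square difference between centered log2 group means. The search covered 10710 tested genes with a symbol and a mean of at least 100 normalized counts. The nearest to Sirpa were Dok1 (0.0252) and Mrps9 (0.0351), to Cd300lf Ogfr (0.0464) and Ralgapa2 (0.0913), and to Pirb Creb3l2 (0.0497) and Gm26917 (0.0539). Lilrb4a was nearest to Bcl2 (0.111) and AW554918 (0.124), Lilr4b to Gm16907 (0.114) and Ezr (0.120), and Cd300a to Sesn1 (0.123) and Plxdc2 (0.127). Cd33 was nearest to Dpm1 (0.150) and Zfp11 (0.152), Cd72 to B4galt4 (0.196) and Cped1 (0.224), and Cd300e to Rnaset2a (0.175) and Cfb (0.294). The distances are not ranked between receptors, since the root-mean-square of the centered group means itself ran from 0.0941 in Sirpa through 0.412 in Cd33 and 0.565 in Cd72 to 2.0 in Cd300e, and a flat gene has near neighbors on this scale. These 6 points per gene are a description, and the groups share libraries.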

How the data were processed

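Per the labels, poly(A) RNA of mouse BMDMs was sequenced as paired reads. The deposited table held raw counts per Ensembl gene, which the authors made with STAR 2.6.1d and Salmon 1.4.0 on mm10 by their notes. The layout, with gene lengths, is that of featureCounts, so the counting program is uncertain. Between 65.2% and 67.9% of counts from 1 to 40 were even, and counts divided by 2 were an alternative. The methods name single reads in triplicate, whereas the labels give paired reads and 2 libraries per group. Symbols and positions (1-based) came from GENCODE M21, which held 54165 of the 54232 gene IDs.

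Genes reaching 10 counts in 2 or more libraries were fitted with DESeq2 1.42.0 in R 4.3.3, as 6 group means over all 12 libraries, with two-sided Wald tests and Benjamini-Hochberg adjustment per comparison. Of the 16281 genes fitted, DESeq2 gave 316 to 4419 no adjusted p, by comparison. The code was tested on simulated data. Normalized counts are counts over size factors. The receptors and the gene lists were chosen with earlier results of these data known, so their calls are not independent evidence. Genes of the related receptor, adaptor, kinase, phosphatase and ligand lists are named where called. Cell type markers are given by sums, counts and a few genes chosen after their values were seen, and 2 listed genes are not reported here. For likeness, the 2 nearest genes are named. Alternatives were edgeR 4.0.16 (quasi-likelihood, TMM), TMM in DESeq2, no filter, a mean of at least 50 counts, halved counts, only the libraries compared, and each library left out.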

Additional observations from a re-analysis of the deposited data

Results flagged for a closer look

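The response to R788 differed between conditions by the interaction test for the following receptors, as differences of log2 fold changes. Between NB9464 TCM and no TCM it differed for Lilrb4a (-1.23), Lilr4b (-1.10), Cd33 (-1.53), Cd72 (1.78) and Cd300e (2.30). Between NBT3L TCM and no TCM it differed for Lilrb4a (-0.61), Lilr4b (-0.66), Cd33 (-1.50), Cd72 (1.68), Cd300lf (-0.42) and Cd300e (2.13). Of these, that of Cd300lf was not called by edgeR (adjusted p = 0.0757) and lost its call in 6 of 8 fits with a library left out. Between NB9464 TCM and NBT3L TCM it differed for Lilrb4a (-0.61) and Lilr4b (-0.45).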

How the results depend on the processing

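Of 486 log2 fold changes and interactions of the receptors recomputed under the 6 settings other than leaving out a library, 474 kept their direction and their side of the threshold, 9 were no longer called, 2 became called and 1 changed sign. That one was the uncalled interaction of Cd300a between NB9464 TCM and no TCM, -0.00063 with a mean of at least 50 counts. With a library left out, 385 of 432 values were kept, 28 lost their call, 3 gained one, and 16, none of them called, changed sign. The number of receptors called lay within 1.5 times of the main count in all but 1 of these fits, R788 in NB9464 TCM without NB9464 TCM + R788 replicate 9, with a range of 5 to 7 against 8. The values that changed sign ranged from -0.145 to 0.00602 (Cd300lf, NBT3L TCM against NS), from -0.051 to 0.101 (Cd72, R788 in NBT3L TCM), from -0.0428 to 0.0596 and from -0.0794 to 0.146 (Cd300a, interactions with NB9464 and NBT3L TCM against no TCM), and from -0.135 to 0.0901 for Cd300a and -0.00538 to 0.0335 for Pirb (interaction between the media). TMM scaling moved the median over all genes by at most 0.0212 on the log2 scale. The cause of these shifts was not tested. No paired analysis was run. Replicate numbers are the running numbers of the libraries, and the labels do not say which libraries share a culture or animal. With 2 libraries per group, the tests rest on the variance that DESeq2 shares between genes.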
